A study of Mus musculus with 3 samples.

Results

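The genes described here are 6 transcription factor genes of the myeloid lineages, Spi1, Cebpa, Cebpb, Cebpe, Irf8 and Gfi1, and 2 inhibitor of DNA binding genes, Id1 and Id2. They were chosen by name, and all 8 were among the 14721 genes of the count table. Single-cell RNA sequencing had been carried out on LSK cells of mouse bone marrow, a fraction sorted as lacking lineage markers and carrying Sca-1 and Kit, which holds stem cells and multipotent progenitors. There was 1 library for each of 3 genotypes, given in the labels as Spop(D/D) Myd88(-/-) for DKO, Spop(D/D) Myd88(+/+) for KO and Spop(+/+) Myd88 (+/+) for WT. SPOP is the substrate receptor of a ubiquitin ligase and MyD88 passes on signals of Toll-like receptors, and the comparisons ask how loss of SPOP, with and without MyD88, bears on these genes. The D/D allele was carried by both DKO and KO. Neither the Cre or other agent that deleted Spop, nor the age, strain or number of mice, is given in the sources used here.

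The DKO library held 8184 cells and 109920419 unique molecular identifiers (UMIs, 1 for each tagged transcript molecule), the KO library 4920 cells and 101393024 UMIs, and the WT library 8147 cells and 85700749 UMIs. The median cell had 12404.5 UMIs in DKO, 17319 in KO and 9245 in WT. A pair of libraries shared 46 to 83 cell barcodes, which is at most 1.10% of a library. Levels are UMIs per 1000000 UMIs of a library or cell group (CPM). With 1 library per genotype no test between genotypes was possible, and each 95% interval covers counting error only, not the spread between mice. Myd88 stood at 4.47 CPM in DKO, 25.8 CPM in KO and 13.7 CPM in WT, and Spop at 77.1 CPM in DKO, 63.1 CPM in KO and 70.7 CPM in WT. Spop levels cannot check the deletion, since only transcript ends were counted and the deleted exons are unknown. Xist was found at 1537 CPM in DKO and at or near 0 in KO and WT, and the Y-linked Ddx3y at 0 CPM in DKO, so sex cannot be told apart from genotype in either DKO comparison. Kit was detected at 65.9 CPM in DKO, 41.5 CPM in KO and 94.8 CPM in WT, and Ly6a, which encodes Sca-1, at 89.5 CPM in DKO, 85.1 CPM in KO and 90.4 CPM in WT. Transcripts of markers of single blood lineages were counted as well, and their sums do not tell how well the sort worked. The 13 neutrophil progenitor markers summed to 3999 CPM in DKO, 12036 CPM in KO and 3157 CPM in WT with none at 0, and the erythroid markers to 893 CPM in DKO, 1775 CPM in KO and 718 CPM in WT. The B lineage markers summed to 76.2 CPM in DKO, 49.5 CPM in KO and 1057 CPM in WT, with Pax5 at 0 in KO.

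PU.1, the product of Spi1, is an ETS family factor that opens myeloid enhancers. C/EBP-alpha is required to form granulocyte-monocyte progenitors, C/EBP-beta sustains granulocyte production during infection, and C/EBP-epsilon drives late neutrophil maturation. IRF8 directs monocyte and dendritic cell fates, whereas GFI1 is a repressor needed for neutrophils, and the 2 are known to act against each other. ID proteins lack a DNA-binding domain and hold E proteins in inactive pairs. Id1 is a classic target of BMP and SMAD signalling, and Id2 is needed by innate lymphoid and some dendritic lineages.

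Upstream sequences from RefSeq were matched for 5 of the 8 genes, Cebpa, Cebpb, Gfi1, Id2 and Irf8. Those of Cebpb and Irf8 are shown because, among these 5, they had the lowest measured ratios of DKO over KO and of DKO over WT. Both are the 250 bases before the gene start on GRCm38.p6, plus strand, from chr2:167688665-167688914 and chr8:120736108-120736357. Capitals mark matches, on either strand, to TGACG (the core of a cAMP response element) in Cebpb and to TTCNNNGAA (a STAT site) in Irf8.
Cebpb promoter: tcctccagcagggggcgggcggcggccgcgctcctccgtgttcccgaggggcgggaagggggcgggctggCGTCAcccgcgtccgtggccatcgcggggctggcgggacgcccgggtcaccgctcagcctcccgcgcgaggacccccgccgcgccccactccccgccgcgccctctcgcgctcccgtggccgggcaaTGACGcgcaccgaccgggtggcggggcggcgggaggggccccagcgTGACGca
Irf8 promoter: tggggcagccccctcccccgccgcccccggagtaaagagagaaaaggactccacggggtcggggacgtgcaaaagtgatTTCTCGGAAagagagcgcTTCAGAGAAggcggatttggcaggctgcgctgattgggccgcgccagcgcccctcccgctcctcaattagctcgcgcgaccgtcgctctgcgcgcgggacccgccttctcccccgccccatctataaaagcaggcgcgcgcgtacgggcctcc
The Cebpb window held 3 matches to TGACG, which lie 180 to 176, 53 to 49 and 7 to 3 bases before the start, and the Irf8 window held none. The Irf8 window held 2 matches to TTCNNNGAA, 171 to 163 and 153 to 145 bases before the start, and the Cebpb window none. Neither window held GAGGAAGT, a PU.1 site, or TTGCNNAA, a C/EBP site. Over 32536 such windows of the RefSeq table, 17.9% held TGACG, 7.04% TTCNNNGAA, 2.45% GAGGAAGT and 9.57% TTGCNNAA. These are letter matches and say nothing of binding in these cells.

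Across whole libraries Cebpa, Cebpb, Cebpe and Id1 were highest in KO, while Irf8 and Id2 were highest in WT, and Spi1 and Gfi1 kept within 1.5-fold in every pair. A gene was counted as higher or lower when its ratio reached 1.5-fold and the 2 libraries averaged at least 5 CPM. Against WT, KO had 4 of the 8 genes higher, beside 7.77% of 9046 genes measured, and 1 lower, beside 17.1%. Against KO, DKO had 0 of 8 higher (17.9% of 8973 genes) and 3 lower (6.32%). Against WT, DKO had 0 higher (3.62% of 9205 genes) and 2 lower (3.55%), and Cebpb, Cebpe and Id1 fell short of the mean level needed. Scaling by TMM factors, which balance the bulk of genes, changed the split of all genes in KO over WT to 1257 higher and 1074 lower, against 703 and 1550 by library totals. In DKO over KO it gave 962 higher and 1126 lower, against 1610 and 567 by library totals, and with it 5 of the 8 genes were lower in DKO, Cebpa and Irf8 having joined. TMM moved the median log2 ratio of all genes to 0.08 in KO over WT, against -0.08, and to -0.06 in DKO over KO, against 0.13. With the cells of erythroid-like, B lineage-like and neutrophil-like clusters left out, 1 of the 8 genes was higher in KO than in WT, Id1, at a log2 ratio of 2.47, and 2 were lower, Irf8 (-1.15) and Id2 (-0.59). Of 9119 genes measured at that setting, 2.12% were higher and 7.27% lower in KO.

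**Figure D1:**
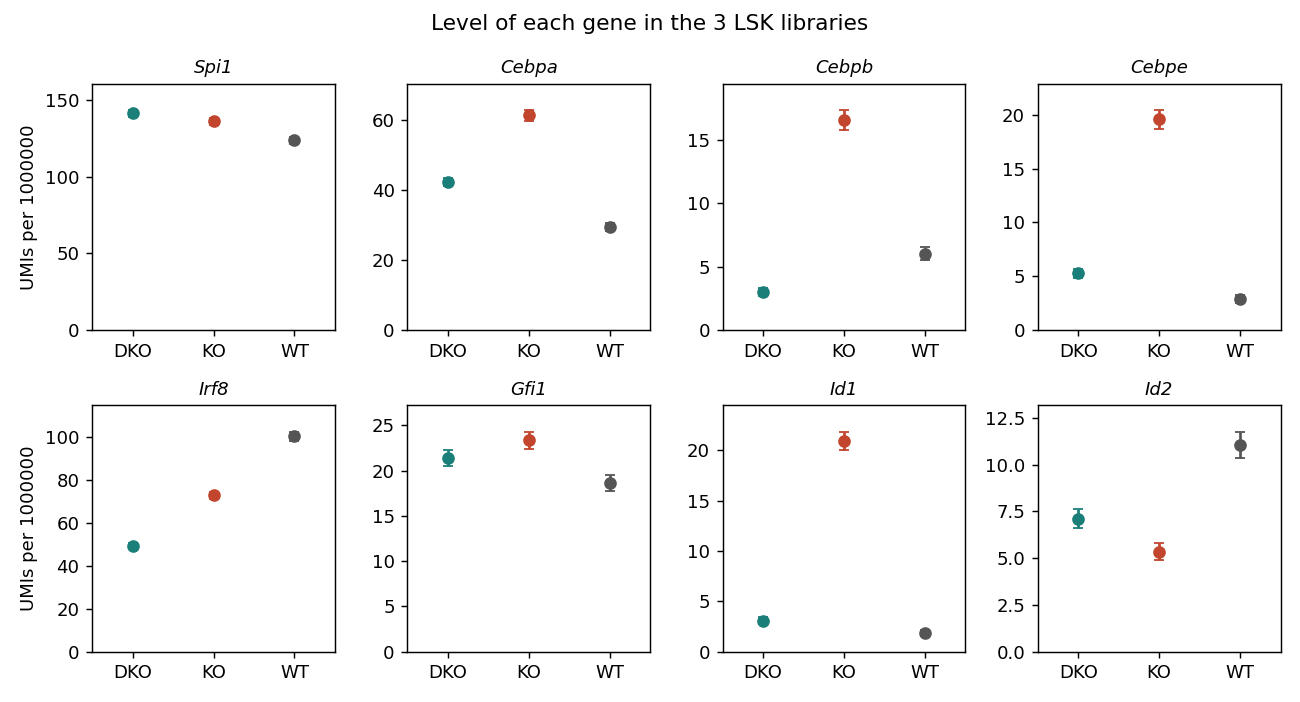
Level of each gene in UMIs per 1000000 (y axis, from 0, own scale in each panel) in the DKO, KO and WT libraries, with exact Poisson 95% intervals for counting error. The Id1 point of KO lies at 20.9, above 3.09 in DKO and 1.84 in WT, while the Irf8 points lie at 49.3 in DKO, 73.0 in KO and 100.5 in WT.

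Spi1 (chromosome 2, 91082390 to 91115756, GRCm38) was the most abundant of the 8, with 141 CPM in DKO, 136 CPM in KO and 124 CPM in WT. At equal depth, with each cell thinned to 5500 UMIs, a Spi1 UMI was found in 52.7% of DKO cells, 42.6% of KO cells and 48.5% of WT cells (unthinned 77.4% in DKO, 71.2% in KO and 67.1% in WT). KO, whose cells were the deepest, thus had the smallest share at equal depth. Across the 32 sums of a cluster and a library with at least 50 cells, Spi1 ranged between 23.8 CPM in the erythroid-like cells of KO and 225 CPM in the neutrophil progenitor-like cells of DKO. It was within 1.5-fold in 10 of 10 clusters compared between DKO and WT, in 4 of 4 between DKO and KO and in 2 of 2 between KO and WT. Its levels therefore spread more between clusters than between genotypes within a cluster.

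The cell groups came from clustering all cells together without the 8 genes among the variable genes, and names rest on markers. The 19 clusters were divided unequally between libraries. The neutrophil progenitor-like cluster, led by Ms4a3, Trem3 and Elane with the monocyte genes Ly6c2, Ccr2 and F13a1 also among its top 10, held 55 DKO, 1478 KO and 23 WT cells. The erythroid-like cluster held 2 DKO, 988 KO and 3 WT cells. The cluster led by Vldlr, Ifitm1 and Socs3 held 7 DKO, 1544 KO and 17 WT cells, and the B lineage-like cluster 12 DKO, 3 KO and 621 WT cells. Only 2 clusters had 50 cells in both KO and WT, the megakaryocyte-like cluster and a lymphoid-primed-like cluster led by Ly6d and Dntt. In all, 4 clusters could be compared between DKO and KO and 10 between DKO and WT. Whether a cluster held by 1 library is a cell type or that library cannot be told apart.

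**Figure D2:**
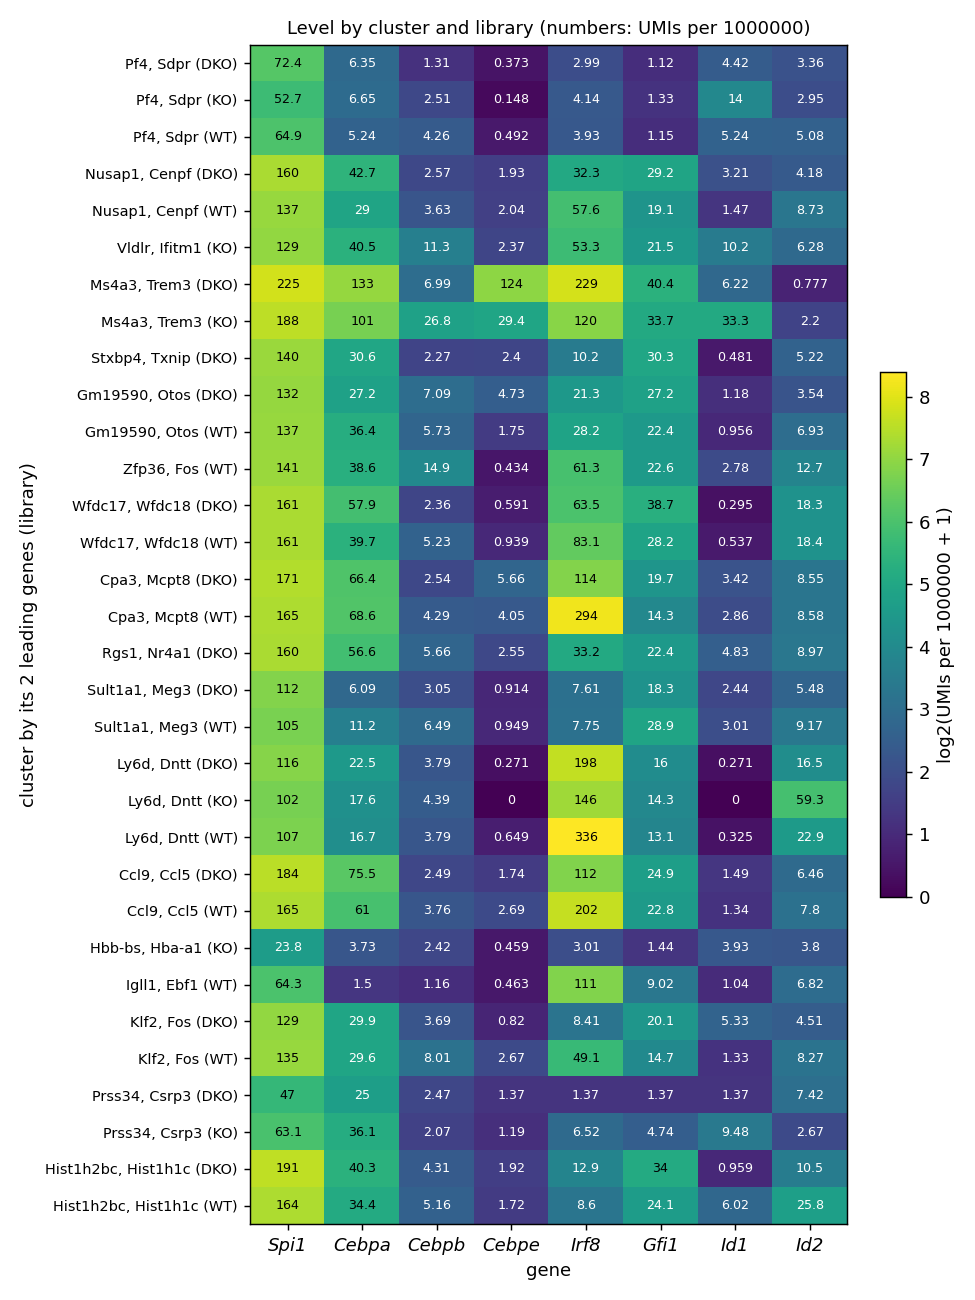
Level of the 8 genes (columns) in each cluster and library with at least 50 cells (rows, named by the 2 leading genes of the cluster); colour is log2 of UMIs per 1000000 plus 1, and the printed numbers are UMIs per 1000000. The row Ms4a3, Trem3 of KO holds the highest Cebpb and Id1 levels, and the row Ly6d, Dntt of WT the highest Irf8 level.

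Cebpa (chromosome 7, 35119293 to 35121928) had 42.4 CPM in DKO, 61.4 CPM in KO and 29.4 CPM in WT. KO exceeded WT 2.09-fold (1.995 to 2.19), and DKO over KO came to 0.690, just within 1.5-fold. In KO, 77.4% of all Cebpa UMIs came from the neutrophil progenitor-like cells, which made up 30.04% of the cells and 47.1% of the UMIs of that library. Inside both clusters that could be compared the gene was within 1.5-fold: KO over WT was 1.27 (0.788 to 2.06) in megakaryocyte-like cells and 1.05 (0.588 to 1.77) in the Ly6d and Dntt cluster. Without the erythroid-like, neutrophil-like and B lineage-like clusters the whole-library log2 ratio of KO over WT was 0.04, against 1.06 with them. Free RNA in droplets gives UMIs in cells that do not express a gene. At equal depth a Cebpa UMI was seen in 21.0% of KO cells and 2.13% of erythroid-like KO cells (median depth 14493 UMIs), and in 14.2% of WT cells and 0.687% of B lineage-like WT cells (median 13197).

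Cebpb (chromosome 2, 167688915 to 167690418) had 2.97 CPM in DKO, 16.5 CPM in KO and 5.998 CPM in WT. KO exceeded WT 2.76-fold (2.498 to 3.05), and DKO lay 5.56-fold below KO (4.94 to 6.28). Its level in neutrophil progenitor-like cells was 6.99 CPM in DKO (9 UMIs in 55 cells) and 26.8 CPM in KO, 3.83-fold lower in DKO (2.01 to 8.39). The lower DKO level was thus also seen inside this cluster. Among WT groups the highest Cebpb level, 14.9 CPM, lay in a cluster led by the immediate early genes Zfp36, Fos and Egr1, which held 45 DKO, 17 KO and 1329 WT cells. Between DKO and WT the Cebpb ratio was below 1 in 8 of 10 clusters, but only 2 reached the level needed, with 1 lower in DKO.

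Cebpe (chromosome 14, 54710360 to 54712174, minus strand) had 5.26 CPM in DKO, 19.6 CPM in KO and 2.85 CPM in WT, and it was found in few cells. At equal depth 1.51% of DKO cells, 4.82% of KO cells and 0.857% of WT cells held a UMI (unthinned 3.03% in DKO, 13.05% in KO and 1.53% in WT), against 0.304% of erythroid-like KO cells and 0.172% of B lineage-like WT cells. KO exceeded WT 6.88-fold (6.02 to 7.89), and DKO lay 3.72-fold below KO (3.39 to 4.09). Within the neutrophil progenitor-like cluster the order turned round: Cebpe stood at 124 CPM in DKO and 29.4 CPM in KO, 4.23-fold higher in DKO (3.57 to 4.99). The 2 sides were not alike in Elane. At equal depth 11 of the 55 DKO cells and 13 of the 1478 KO cells held at least 50 Elane UMIs. Those with 1 to 4 numbered 4 in DKO and 399 in KO. The part of this mix in the ratio was not tested. Without this cluster and the other neutrophil-like, erythroid-like and B lineage-like clusters the log2 ratio of DKO over KO was 0.32, against -1.90 with them. At that setting Cebpe fell short of the mean of 5 CPM needed to be counted. The small mature neutrophil-like cluster, led by the late granule genes S100a8 and S100a9, held 0.955% of KO cells and 25.7% of the Cebpe UMIs of KO.

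In the neutrophil progenitor-like cluster of DKO over KO, 2 of the 8 genes were higher, Cebpe and Irf8, beside 11.3% of 8254 genes, and 2 were lower, Cebpb and Id1, beside 10.1%. Spi1 (1.20), Cebpa (1.32) and Gfi1 (1.20) were within 1.5-fold, and Id2 was too low to be counted. DKO cells in this cluster had a median of 25161 UMIs and KO cells 33073.5, and their Elane counts differed as given above.

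Irf8 (chromosome 8, 120736358 to 120756694) was highest in WT, with 49.3 CPM in DKO, 73.0 CPM in KO and 100.5 CPM in WT. DKO lay 2.04-fold below WT (1.97 to 2.11), and KO over WT came to 0.727. At equal depth 13.7% of DKO cells, 17.5% of KO cells and 25.4% of WT cells held a UMI, against 1.52% of the erythroid-like KO cells. The sources of Irf8 differed by library. In KO 77.2% of Irf8 UMIs came from neutrophil progenitor-like cells, whereas lymphoid-primed-like cells gave 30.1% of them in DKO and 44.8% in WT. Clusters left without a name gave 62.7% in DKO, 19.7% in KO and 42.5% in WT. Of the lymphoid-primed-like cells, 672 of 910 in DKO and 333 of 1129 in WT lay in the cluster led by Ccl9 and Ccl5. In the Ly6d and Dntt cluster it stood at 198 CPM in DKO, 146 CPM in KO and 336 CPM in WT, and the WT value was the highest of the 32 sums. In DKO the level was higher in the 55 neutrophil progenitor-like cells, at 229 CPM.

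The lower Irf8 level of DKO was seen in clusters of several kinds. Between DKO and WT the ratio was below 1 in 9 of 10 clusters. Of the 9 clusters in which the gene was measured, 5 had it lower in DKO, 1 higher and 3 within 1.5-fold, and in the 1 higher, led by Hist1h2bc and Hist1h1c, the interval of 0.706 to 3.48 included 1. Of all genes measured, 3.05% were lower in DKO in the megakaryocyte-like cluster, 2.59% in that led by Nusap1, 8.2% in that led by Gm19590, 4.53% in that led by Wfdc17 and 3.07% in that led by Cpa3. The share was 5.18% in the stem cell-like cluster, 7.26% and 4.99% in the lymphoid-primed-like clusters led by Ly6d and by Ccl9 and Ccl5, 6.23% in that led by Klf2 and 11% in that led by Hist1h2bc, where 12.3% were higher. Against these shares, Irf8 was lower in 5 of 9, and in each of the 5 the interval excluded 1. In the cluster led by Klf2 and Fos it stood at 8.41 CPM in DKO and 49.1 CPM in WT, 5.84-fold lower in DKO (4.14 to 8.41). In the cluster led by Cpa3 and Mcpt8, basophil and mast cell genes, it stood at 114 CPM in DKO and 294 CPM in WT, 2.57-fold lower (2.39 to 2.76). In stem cell-like cells, where Irf8 is low, it stood at 7.61 CPM in DKO and 7.75 CPM in WT. Irf8 was lower in KO too in the Ly6d and Dntt cluster, 2.30-fold below WT (1.94 to 2.76), from 67 KO and 796 WT cells, in a comparison where 15.8% of all genes were lower in KO.

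**Figure D3:**
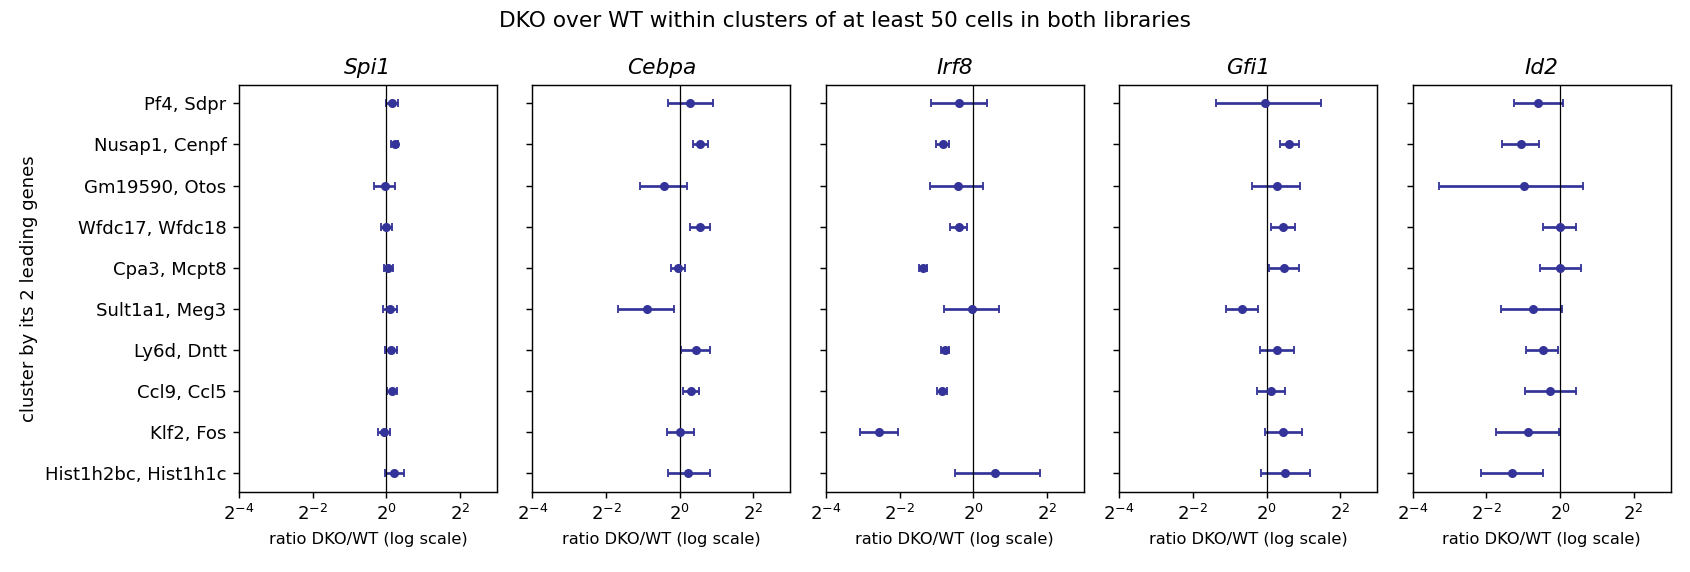
Ratio of DKO over WT (x axis, log scale) with exact conditional 95% intervals for Spi1, Cebpa, Irf8, Gfi1 and Id2 within the 10 clusters that hold at least 50 cells of both libraries (rows). Irf8 lies left of 1 in 9 of 10 clusters and Id2 in 10 of 10, while all 10 Spi1 points lie close to 1.

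Gfi1 (chromosome 5, 107716657 to 107726036, minus strand) had 21.4 CPM in DKO, 23.3 CPM in KO and 18.6 CPM in WT. At equal depth it was found in 10.7% of DKO cells, 9.84% of KO cells and 10.0% of WT cells, so the libraries were alike in this share to within 1 percentage point. Between DKO and WT the ratio was above 1 in 8 of 10 clusters (median 1.29), and of 9 measured 7 were within 1.5-fold, 1 higher and 1 lower. Between clusters it spanned 1.1 CPM in the megakaryocyte-like cells of DKO to 40.4 CPM in the neutrophil progenitor-like cells of DKO. In stem cell-like cells Gfi1, which keeps stem cells quiescent, stood at 18.3 CPM in DKO and 28.9 CPM in WT, 1.58-fold lower in DKO (1.18 to 2.16). In the cluster led by the mitotic genes Nusap1 and Cenpf it stood at 29.2 CPM in DKO and 19.1 CPM in WT, 1.53-fold higher (1.28 to 1.83), in a cluster where 4.08% of all genes were higher. These 2 clusters lay on opposite sides of 1, and the difference between them was not tested.

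The genes were also followed along ranges of granulocyte and monocyte genes in KO cells. Cells thinned to 5500 UMIs were divided by their UMIs of Elane, a granule protease of neutrophil precursors, or by the summed UMIs of 7 monocyte genes (Ly6c2, Ccr2, Csf1r, F13a1, Ctss, Ms4a6c and Fn1). In KO cells with 0, 1 to 4, 5 to 49 and at least 50 Elane UMIs (2902, 1026, 942 and 50 cells), Cebpe stood at 1.19, 7.44, 37.6 and 269 CPM. Gfi1 stood at 11.8, 20.7, 41.1 and 94.5 CPM over the same ranges. Irf8 climbed with the first 3 ranges, at 32.4, 65.4 and 106 CPM, and stood at 3.64 CPM in the top range, where 1 UMI was counted in 50 cells. These ranges cross clusters: neutrophil progenitor-like cells made up 141 of 2902, 399 of 1026, 925 of 942 and 13 of 50 cells, and 37 of the 50 in the top range were mature neutrophil-like. Within the neutrophil progenitor-like cluster alone Irf8 stood at 126, 117 and 108 CPM over the first 3 ranges, while Cebpe stood at 1.29, 7.29 and 37.1 CPM and Gfi1 at 21.9, 27.3 and 41.5 CPM. Over all KO cells Cebpa stood at 23.7, 61.8, 113 and 113 CPM over the same ranges, and Spi1 at 83.8, 128, 191 and 255 CPM. Within that cluster alone Cebpa stood at 115, 105 and 113 CPM over the first 3 ranges. Spi1 stood at 187, 174 and 192 CPM there. Elane, Cebpe and Gfi1 are all known as neutrophil lineage genes.

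The monocyte gene ranges were read within the neutrophil progenitor-like cells of KO. In cells with 0, 1 to 2, 3 to 9 and at least 10 monocyte gene UMIs (226, 495, 637 and 120 cells), Irf8 stood at 33.8, 59.5, 146 and 286 CPM. Gfi1 stood at 50.7, 40.8, 32.3 and 12.1 CPM, Cebpe at 51.5, 33.1, 15.4 and 15.2 CPM and Cebpa at 141, 122, 99.3 and 83.3 CPM. Cebpb kept between 23.5 and 26.0 CPM. So in this 1 cluster Irf8 went up as Gfi1, Cebpe and Cebpa went down, with Cebpb level. These are descriptions of cells from 1 library, and the ranges are not cell types.

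**Figure D4:**
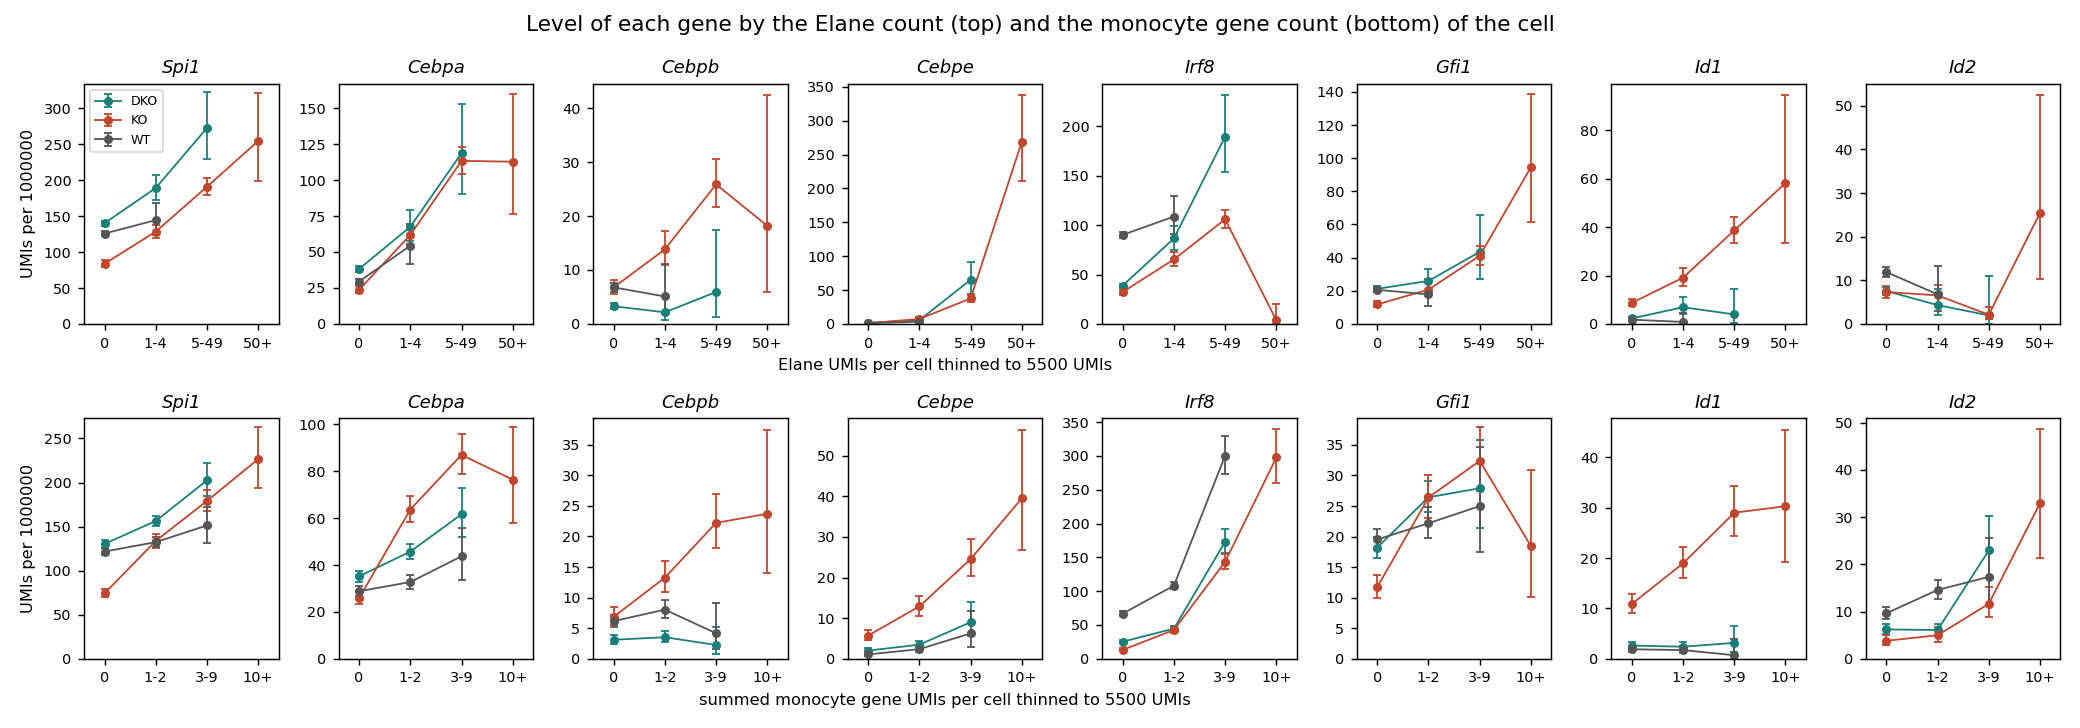
Level of each gene in UMIs per 1000000 (y axis, from 0, own scale in each panel) in cells divided by Elane UMIs (top row) and by summed monocyte gene UMIs (bottom row) at 5500 UMIs per cell, for DKO, KO and WT, with exact Poisson 95% intervals; ranges with under 50 cells are not drawn. Irf8 of KO stands at 3.64 in the top Elane range, of which 37 of 50 cells are mature neutrophil-like, and at 298 in the top monocyte gene range, and Cebpe of KO at 269 in the top Elane range.

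Detection in single cells of this KO cluster was counted as well, as a description without a test, since the cells share 1 library. At equal depth Gfi1 was found in 10.6% of the 549 cells with an Irf8 UMI (8.12% to 13.4%) and in 21.7% of the 929 cells without one (19.1% to 24.5%). Cebpe was found in 5.46% of cells with Irf8 (3.72% to 7.71%) and 15.2% of cells without it (12.9% to 17.6%). The correlations of detection behind these shares were weak, at -0.14 for Gfi1 and -0.15 for Cebpe. Cebpe was found in 18.1% of the 260 cells with a Gfi1 UMI (13.6% to 23.3%) and 10.2% of the 1218 cells without one (8.54% to 12.02%). In WT cells of the Cpa3 and Mcpt8 cluster, Gfi1 was found in 1.82% of 110 cells with Irf8 and 9.56% of 136 cells without it, and the intervals (0.221% to 6.41% and 5.19% to 15.8%) overlapped. In DKO cells of that cluster the shares were 10.0% of 229 and 9.42% of 743, which differ by under 1 percentage point. Over whole libraries the correlation of detection between any 2 of the genes kept between -0.03 and 0.16, which is weak in sparse counts.

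DKO cells along the Elane ranges could be set beside KO up to 49 Elane UMIs. With 5 to 49 Elane UMIs (92 DKO and 942 KO cells), Irf8 stood at 190 CPM in DKO (154 to 232) and 106 CPM in KO (97.3 to 115). Cebpe stood at 65.2 CPM in DKO (44.9 to 91.6) and 37.6 CPM in KO (32.5 to 43.3), and Gfi1 at 43.5 CPM in DKO and 41.1 CPM in KO. Id1 stood at 3.95 CPM in DKO (0.479 to 14.3) and 38.6 CPM in KO (33.4 to 44.3). The intervals of Irf8, Cebpe and Id1 did not overlap, while the Gfi1 levels were within 1.5-fold. Nor did those of Spi1 (229 to 322 in DKO, 179 to 203 in KO) and Cebpb (1.22 to 17.3 in DKO, 21.7 to 30.6 in KO). The intervals of Cebpa, Gfi1 and Id2 overlapped. How many of all genes had intervals apart in this range was not counted, so this is not read as particular to these genes. The cells of this range lay in different clusters: 40 of 92 in DKO and 925 of 942 in KO were neutrophil progenitor-like.

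Id1 (chromosome 2, 152736251 to 152737410) differed by the largest fold of the 8 genes in KO over WT and in DKO over KO. It had 3.09 CPM in DKO, 20.9 CPM in KO and 1.84 CPM in WT. KO exceeded WT 11.4-fold (9.66 to 13.4), and DKO lay 6.77-fold below KO (6.03 to 7.61). At equal depth an Id1 UMI was seen in 1.24% of DKO cells, 8.09% of KO cells and 0.817% of WT cells (unthinned 3.14% in DKO, 24.7% in KO and 1.51% in WT). In KO 75.0% of the Id1 UMIs came from neutrophil progenitor-like cells. There it stood at 6.22 CPM in DKO (8 UMIs) and 33.3 CPM in KO, 5.36-fold lower in DKO (2.71 to 12.4).

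The Id1 difference was also seen outside the neutrophil progenitor-like cells. In the megakaryocyte-like cluster it stood at 4.42 CPM in DKO, 14.0 CPM in KO and 5.24 CPM in WT. KO was 2.68-fold above WT there (1.78 to 4.13), where 2.64% of all genes were higher. DKO was 3.18-fold below KO (2.31 to 4.38), where 2.8% were lower. In the cluster led by Prss34 and Csrp3 it stood at 1.37 CPM in DKO and 9.48 CPM in KO, 6.90-fold lower in DKO (2.67 to 22.7), beside 4.53% of all genes. Levels among KO groups were unequal, with 10.2 CPM in the Vldlr and Ifitm1 cluster and 3.93 CPM in erythroid-like cells. In the Ly6d and Dntt cluster no Id1 UMI was counted in 67 KO cells, which allows up to 3.29 CPM at 3 counts, beside 0.271 CPM in DKO and 0.325 CPM in WT. Cells with no Elane UMI still had 2.29 CPM in DKO (1.85 to 2.80), 8.71 CPM in KO (7.32 to 10.3) and 1.77 CPM in WT (1.38 to 2.23). They were not all outside the neutrophil progenitor-like cluster, which held 0 of 7466 in DKO, 141 of 2902 in KO and 1 of 7204 in WT. The 141 KO cells gave 16 of the 139 Id1 UMIs of KO cells with no Elane UMI. Free RNA from the neutrophil progenitor-like cells can add Id1 UMIs to other KO cells, and its part was not tested. At equal depth 2.02% of erythroid-like KO cells and 5.31% of megakaryocyte-like KO cells held an Id1 UMI (median depths 14493 and 14046.5 UMIs).

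Id2 (chromosome 12, 25093799 to 25097140, minus strand) had 7.09 CPM in DKO, 5.35 CPM in KO and 11.03 CPM in WT. Relative to WT it was 2.06-fold lower in KO (1.85 to 2.30) and 1.56-fold lower in DKO (1.41 to 1.71). The order of its levels was the reverse of that of Id1 in KO and WT. Between DKO and WT the Id2 ratio was below 1 in 10 of 10 clusters, and of 9 measured 5 had it lower in DKO and 4 within 1.5-fold, against all-gene shares of 2.59% to 11% lower. In 3 of the 5 the interval excluded 1. In the cluster led by Gm19590 it did not, at 3 DKO UMIs (0.103 to 1.55), nor in stem cell-like cells (0.331 to 1.03). In 2 of these 10 clusters, led by Wfdc17 and Wfdc18 and by Cpa3 and Mcpt8, the ratio was 0.996. In the cluster led by Hist1h2bc and Hist1h1c Id2 stood at 10.5 CPM in DKO and 25.8 CPM in WT, 2.45-fold lower (1.37 to 4.45).

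The highest Id2 level, 59.3 CPM, was that of KO in the Ly6d and Dntt cluster, with 16.5 CPM in DKO and 22.9 CPM in WT. Of the 54 UMIs behind it, 27 lay in 1 cell. Without the cell with the most Id2 UMIs in each library, KO over WT there was 1.40 (0.902 to 2.10), against 2.58 (1.88 to 3.50) with it, in a comparison where 5.35% of all genes were higher. The same step moved DKO over KO to 1.95-fold lower, against 3.59-fold, beside 8.8% of all genes. Id2 was scarce in the neutrophil progenitor-like cells of KO, at 2.20 CPM. In all KO cells with at least 10 monocyte gene UMIs it stood at 32.9 CPM, from 25 UMIs in 138 cells. The 120 of these cells that were neutrophil progenitor-like gave 1 UMI, so the Id2 signal lay in the few other cells.

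Over the 32 sums of a cluster and a library, the genes whose log2(CPM + 1) followed each member most closely were named by Pearson correlation among 4819 genes. Spi1 ran with Kcnk12 (0.93), the myeloid kinase gene Fes (0.92) and Ms4a6b (0.92), and Gfi1 with Cd53 (0.90), Rgs19 and Arl11. Irf8 ran with the myeloid lectin gene Clec12a (0.94), Zfp706 and Milr1. Clec12a is known from monocytes and granulocytes. Cebpa ran with the chemokine gene Ccl9 (0.90), Anxa2 and Fcer1g, and Cebpe with Msrb1 (0.91), the haem synthesis gene Alas1 and the late granule gene Lcn2. Id2 ran with Dip2b (0.84), Smad7 and the E protein gene Tcf4, while Id1 ran less closely with Cox19 (0.76) and Cebpb with Ripk1 (0.61) and the granule protease gene Prtn3 (0.59). Among the 8 genes Spi1 and Gfi1 were the most alike (0.88), and Id1 and Id2 were opposed (-0.62). The sums share libraries and depth, so these values describe the pattern only.

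Other genes of the same circuits were taken as 4 lists. Of 26 other myeloid regulators, 25 were in the table. In KO over WT, 1 of 17 measured was higher (7.77% of all genes) and 8 lower (17.1%). The median log2 ratio was -0.48, beside -0.08 over all genes. In DKO over KO 5 of 15 were higher (17.9%) and 0 lower (6.32%), with a median of 0.25, beside 0.13. In DKO over WT 1 of 19 was higher (3.62%) and 5 lower (3.55%), with a median of -0.08, beside 0.06. The interferon regulatory factor gene Irf7 stood at 20.6 CPM in DKO, 29.4 CPM in KO and 12.2 CPM in WT, with KO 2.41-fold above WT (2.24 to 2.58), while its relative Irf2 stood at 76.9 CPM in DKO, 35.8 CPM in KO and 80.3 CPM in WT, 2.24-fold lower in KO than in WT (2.15 to 2.33). The immediate early factor genes Egr1 and Jun stood at 54.9 and 255 CPM in DKO, 14.5 and 97.2 CPM in KO and 130 and 422 CPM in WT, and both were lower in DKO and KO than in WT. Runx1, needed to form blood stem cells, and Cebpg, a C/EBP relative, at 46.8 CPM each in DKO and 64.8 and 62.3 CPM in WT, were within 1.5-fold in that pair.

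Partners and relatives of the ID proteins were mostly lower in KO across whole libraries, but not with erythroid-like, B lineage-like and neutrophil-like clusters left out. Of 11 on the list, 10 were in the table. In KO over WT 0 of 10 were higher (7.77% of all genes) and 6 lower (17.1%), with a median of -0.63. In DKO over KO 3 of 8 were higher (17.9%) and 0 lower (6.32%), with a median of 0.45. In DKO over WT 0 of 10 were higher (3.62%) and 2 lower (3.55%), with a median of -0.18. Without those clusters 0 were lower in KO than in WT (7.27% of all genes), 0 higher in DKO than in KO (7.89%) and 0 lower in DKO than in WT (3.17%). With TMM factors 4 were lower in KO than in WT, beside 1074 of all 9088 genes measured. Tcf4, an E protein gene, stood at 96.7 CPM in DKO, 53.3 CPM in KO and 119 CPM in WT, 2.22-fold lower in KO than in WT (2.15 to 2.30). Hhex, a homeobox gene of early progenitors, stood at 176 CPM in DKO, 93.2 CPM in KO and 164 CPM in WT. Lyl1 and Tcf12, which are bHLH genes, were 1.58-fold and 1.51-fold lower in KO than in WT, and Lmo2, which encodes a bridging partner of bHLH factors, was 1.57-fold higher in DKO than in KO. Hes6 was within 1.5-fold between DKO and WT, at 77.7 CPM in DKO and 97.5 CPM in WT.

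The BMP and TGF-beta pathway genes were mostly lower in KO, the library with the highest Id1, when whole libraries were compared. Of 21 on the list, 20 were in the table. In KO over WT 0 of 15 were higher (7.77% of all genes) and 9 lower (17.1%), with a median of -0.61. In DKO over KO 5 of 15 were higher (17.9%) and 0 lower (6.32%), with a median of 0.33. In DKO over WT 0 of 15 were higher (3.62%) and 3 lower (3.55%), with a median of -0.30. With TMM factors 5 were lower in KO than in WT, beside 1074 of all 9088 genes measured. Without the erythroid-like, B lineage-like and neutrophil-like clusters 1 was lower in KO than in WT (7.27% of all genes). At that setting 0 were higher in DKO than in KO (7.89%). The inhibitory Smad7, itself a SMAD target, stood at 27.3 CPM in DKO, 11.7 CPM in KO and 43.6 CPM in WT, 3.72-fold lower in KO than in WT (3.48 to 3.97). The co-receptor gene Eng stood at 40.6 CPM in DKO, 21.5 CPM in KO and 36.7 CPM in WT, and Smad5 was 1.51-fold lower in KO than in WT. Smad1, which carries BMP signals, stood at 30.3 CPM in DKO, 17.8 CPM in KO and 23.9 CPM in WT, and Tgfb1 was within 1.5-fold in DKO against either library.

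Myeloid receptors and target genes did not all move the same way across whole libraries, though more were higher than lower in KO against WT. In KO over WT 12 of 23 measured were higher (7.77% of all genes) and 4 lower (17.1%), with a median of 1.13. In DKO over KO 3 of 23 were higher (17.9%) and 13 lower (6.32%), with a median of -1.30. In DKO over WT 5 of 19 were higher (3.62%) and 1 lower (3.55%), with a median of 0.14. Without the same clusters 6 were higher and 4 lower in KO over WT, beside 2.12% and 7.27% of all genes, and 6 higher and 2 lower in DKO over KO, beside 7.89% and 1.69%. The named ones were neutrophil granule and progenitor genes. Lcn2, a late granule gene that C/EBP-epsilon is known to act on, stood at 6.37 CPM in DKO and 88.0 CPM in KO, 13.8-fold lower in DKO (12.8 to 14.95). Ms4a3, Ctsg, Elane and Mpo were 4.03-fold, 2.91-fold, 2.65-fold and 1.93-fold higher in DKO than in WT. Relative to KO, DKO had Elane 6.20-fold, Prtn3 3.67-fold and Ms4a3 8.20-fold lower. Neutrophil progenitor-like cells made up 0.672% of DKO, 30.04% of KO and 0.282% of WT cells, and their part in these folds was not tested.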

How the data were processed

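Libraries had been made with Chromium Single Cell 3' v2 reagents, per the labels' protocols. Per the submitters' processing notes the tools were bcl2fastq, Cell Ranger and Seurat, with mm10. Of the deposited tables, one gives UMI counts as whole numbers (14721 genes, 21251 cells, after the filters of the authors). The other holds the natural log of 1 plus scaled counts, as deposited, and was used only as a check: all 21251 values of each of the 8 genes were recovered from the counts within 0.001. Aligner settings and cell filters are not given in the sources used here.

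Cells took their genotype from the column names. The 8 genes and all gene and marker lists were chosen with earlier results of these data known. UMIs were summed per library or cell group and divided by their total. Levels carry exact Poisson intervals, shares exact Clopper-Pearson intervals and ratios exact conditional binomial intervals (95%), which cover counting error only. A count of 0 allows up to 3 counts, which is 0.0273 CPM in DKO, 0.0296 CPM in KO and 0.0350 CPM in WT. No test was made. The calculation was tested on simulated data.

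Cells were clustered with scanpy 1.11.5 and leidenalg 0.10.2 on 2000 variable genes, without the 8 genes and without ribosomal, mitochondrial, cell cycle or sex-linked genes, with 30 principal components, 20 neighbours and resolution 1, and with no batch correction, since library and genotype coincide. A cluster was named when at least 3 markers of 1 list were in its top 15 genes with a lead of 2 over the next list. Ly6a, Ifitm1 and Ifitm3 were not counted for names, a choice made after the clusters were seen. Thinning to 5500 UMIs left out 178 DKO, 0 KO and 683 WT cells. Scrublet called 0.0489% of DKO, 0.793% of KO and 0.0245% of WT cells, too few to be usable, so no doublets were removed from the main results. An alternative left out the 536 DKO, 194 KO and 531 WT cells with the highest Scrublet scores.

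Named genes were the 8, Spop and Myd88, up to 4 genes of each list with the largest ratios of a pair (mean 20 CPM or more), the 3 genes most like each member, and leading genes of clusters. Some genes that this rule picks are left out here. Xist, Ddx3y, Kit and Ly6a were added after their values were seen. TMM factors came from edgeR 4.0.16 and size factors from DESeq2 1.42.0.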

Additional observations from a re-analysis of the deposited data

Results flagged for a closer look

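Some ratios lay on opposite sides of 1 in 2 clusters, with both counting intervals excluding 1, and the difference between the clusters was not tested. Gfi1 in DKO over WT was 1.53 in the cluster led by Nusap1 and Cenpf and 0.631 in the stem cell-like cluster, and Cebpa was 1.47 and 0.542 in the same clusters. Cebpa in DKO over KO was 1.32 in the neutrophil progenitor-like cluster and 0.692 in the cluster led by Prss34 and Csrp3. Spi1 in DKO over KO was 1.37 in the megakaryocyte-like cluster and 0.745 in the Prss34 and Csrp3 cluster. Id2 in DKO over KO was 2.78 in the Prss34 and Csrp3 cluster and 0.278 in the Ly6d and Dntt cluster. Single cells carried much of both Id2 values: 1 of 234 DKO cells held 16 of 27 UMIs in the first cluster, and 1 of 67 KO cells held 27 of 54 in the second. Without the cell with the most Id2 UMIs in each library the ratios were 3.403 (0.899 to 19.0) and 0.514 (0.320 to 0.845).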

How the results depend on the processing

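Cebpb, Cebpe, Id1 and Id2 averaged under 20 CPM in every pair. At a minimum mean of 20 CPM they therefore left the counts below whatever their ratios. The count of genes higher in KO than in WT was 4 (703 of all 9046 genes), and 1 with a minimum mean of 20 CPM. It was 1 without the erythroid-like, neutrophil-like and B lineage-like clusters (Id1, 193 of 9119) and 1 when standardised to WT cluster shares (245 of 9019). The count lower in KO was 1 (1550 of 9046), and it was 0 at a minimum of 20 CPM and 2 at a smaller fold threshold. It was also 2 with equal weight per cell (1402 of 9154), with cells thinned to 5500 UMIs (1375 of 9148) and without those clusters (663 of 9119). In DKO over KO the count lower was 3 (567 of 8973). It was 5 with TMM (1126 of 8999) and 5 with median-of-ratios factors (1152 of 9003). It was 5 at a smaller fold threshold, 0 at a minimum of 20 CPM and 1 when standardised (381 of 8963). The count higher was 1 at a smaller fold threshold in place of 0. In DKO over WT the count lower was 2; it was 1 at a minimum of 20 CPM, 1 at a fold of 2 and 1 when standardised, and the count higher was 1 at a smaller fold threshold in place of 0. Standardising uses 2 clusters in KO over WT, with 10.5% of KO and 16.1% of WT cells, so most cells leave the comparison by construction. It turned the log2 ratio of KO over WT to -0.12 for Cebpb, -3.34 for Cebpe and 1.22 for Id2, and that of DKO over KO to 2.05 for Cebpe. The Cebpe value of KO over WT rests on 1 KO and 9 WT UMIs. Cebpe in DKO over KO was 0.32 without the erythroid-like, neutrophil-like and B lineage-like clusters, where it fell short of the mean of 5 CPM needed.

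Id1 kept its sign in 8 of 8 alternatives in KO over WT (1.29 to 3.67) and in DKO over KO (-2.96 to -1.64), as did Irf8 in DKO over WT (-1.11 to -0.76) and Id2 in DKO over WT (-0.75 to -0.48). In all there were 192 values of member ratios under alternatives, of which 24 had the other sign, 5 of them for a ratio past 1.5-fold. The others were of ratios within 1.5-fold, such as Irf8 (up to 0.44) and Id2 (down to -1.68) in DKO over KO, and Spi1 and Gfi1 in KO over WT and DKO over KO. Leaving out the cell with the most UMIs, an alternative chosen after seeing the data, moved 4 of 40 cluster ratios past their counting interval, all in the Ly6d and Dntt cluster; Irf8 there was 0.338 in KO over WT and 1.71 in DKO over KO. No paired analysis was possible because each genotype has 1 library, and no library could be left out. Depth limits the small groups most: Id1 and Cebpb in the 55 DKO neutrophil progenitor-like cells rest on 8 and 9 UMIs.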
